A study of Mus musculus with 3 samples.

Results

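The circadian clock genes described here are Arntl (also called Bmal1), Clock, Per1, Per2, Per3, Cry1, Cry2, Dbp, Nr1d1 and Nr1d2. They were chosen by symbol as core clock and output genes, and all 10 were found among the 46983 gene rows of the count table. They were followed across 3 RNA-seq libraries of cells sorted from mouse leptomeninges, the thin inner membranes of the brain, labelled as a pia-enriched fraction of vehicle-treated mice. All 3 libraries belong to 1 group, so the only comparison is between libraries, which are numbered 1 to 3 as in the labels. Strain, genotype, sex, age, the agent that the vehicle accompanied, the time of day of collection and the light schedule are not stated in the labels used here. Nothing in the labels says whether the libraries came from separate mice, so a p-value below measures only the spread between these samples, which may be technical.

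The molecular clock is a feedback loop of transcription that runs in most cells of the body, fibroblasts included. The proteins of Arntl and Clock form a pair that binds E-boxes, short DNA motifs, and switches on the Per and Cry genes, whose proteins then block that pair. A second loop runs through Nr1d1 and Nr1d2, which encode the nuclear receptors REV-ERB alpha and beta and repress Arntl by competing with the ROR receptors for their binding elements. Dbp encodes a bZIP factor that carries the rhythm to target genes through D-boxes. In many tissues the transcripts of Dbp, Nr1d1 and Per3 peak many hours away from that of Arntl, and Per1 also responds within minutes to stress signals and glucocorticoids.

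The libraries held 21002860, 28704952 and 25338616 gene counts. Levels are counts per 1e6 gene counts (CPM) on library sizes scaled by TMM, and differences are on log2(CPM + 1), which understates the change of low genes. Fibroblast markers were high, with Col1a2 at 11500 ± 935 CPM and Pdgfra at 135 ± 11.9 CPM (SD, n = 3), whereas the summed level of 4 neuron markers was 66.1 to 86.8 CPM. Library 1 stood apart from the others. The Pearson correlation across genes, which are not independent replicates, was 0.975 between libraries 2 and 3 but 0.933 and 0.941 for library 1 with each of them, and genes of low GC content were lower in library 1. Ranges of the clock genes and the counts over them are therefore given also without library 1, or after subtraction of each library's smooth trend with GC content and exon length, called detrending below.

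Promoter sequences show which of these genes carry the clock's own motifs close to their start. RefSeq windows of 300 bases on GRCm38.p6, with 250 bases before the transcription start and 50 after it, matched 9 of the 10 genes in 13 windows; the gene without one was Per2. Both strands were searched for 7 motifs: the E-box CACGTG, its variant the E-prime box CACGTT, the D-box in the forms TTATGTAA and TTACGTAA, the ROR response element, the cAMP response element TGACGTCA and the glucocorticoid response element. The E-box reads the same on both strands and was counted once. The stretches around the matches are shown so that the motifs can be read in their context; they run 5′ to 3′ along the gene's strand, with the motif in capitals, and an E-prime box on the other strand reads AACGTG.
Per1, chr11:69098763-69098808, plus strand: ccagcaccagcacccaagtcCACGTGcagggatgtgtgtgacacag
Cry1, chr10:85185089-85185153, minus strand: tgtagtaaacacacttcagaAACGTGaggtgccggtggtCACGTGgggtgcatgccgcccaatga
Cry2, chr2:92434210-92434255, minus strand: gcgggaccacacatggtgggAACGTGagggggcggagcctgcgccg
Nr1d1, chr11:98775380-98775425, minus strand: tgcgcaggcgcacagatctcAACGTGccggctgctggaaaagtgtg
Per3, chr4:151044796-151044890, minus strand: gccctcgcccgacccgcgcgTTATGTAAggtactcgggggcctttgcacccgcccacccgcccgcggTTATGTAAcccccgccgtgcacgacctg
Arntl, chr7:113207528-113207556, plus strand: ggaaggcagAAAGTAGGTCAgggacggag

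The E-box stood in windows of 2 of the 9 genes, Per1 and Cry1, and in 7.15% of all 32851 windows. The E-prime box stood in 3 of 9, Cry1, Cry2 and Nr1d1, against 4.68% of windows. Per3 carried the D-box TTATGTAA at 205 and at 158 bases before its start, a motif held by 0.938% of windows. Arntl carried a ROR response element, as did 0.384% of windows. That element began at base 27 counted from the start at 113207511, with the start base included. The window of the other Arntl start, at 113207465, held no match. Clock, Dbp and Nr1d2 had none of the motifs in these windows. A match is a description of the sequence and does not show binding. Genes with several starts were given several windows, so the counts over genes and the shares of windows are in unlike units.

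Every clock gene was expressed in every library, and all 10 passed the filter on low counts, which 14409 genes passed. Per kilobase of exon, the scale on which genes can be compared with each other, Nr1d1 had the highest level at 33.6 ± 16.9 CPM per kilobase (SD, n = 3). Per1 followed at 8.17 ± 2.23, and both differences in rank, Nr1d1 over Per1 and Per1 over Cry2, held in 3 of 3 libraries with no overlap of their ranges. The next 8 genes lay close together. Cry2 (3.85 ± 0.43), Arntl (3.65 ± 0.62), Dbp (3.03 ± 1.29) and Clock (2.79 ± 1.42) came first. Nr1d2 (2.35 ± 2.95), Cry1 (1.69 ± 0.13), Per3 (1.60 ± 0.59) and Per2 (1.29 ± 0.35 CPM per kilobase) followed. Each overlapped the next in range, so neighbours in this order were not resolved by range. Within libraries, Per3 lay above Per2 in 3 of 3, and the order of the other neighbours changed between libraries. Genes farther apart were resolved: in every library, Cry2 and Arntl lay above the whole ranges of Cry1, Per3 and Per2.

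**Figure D1:**
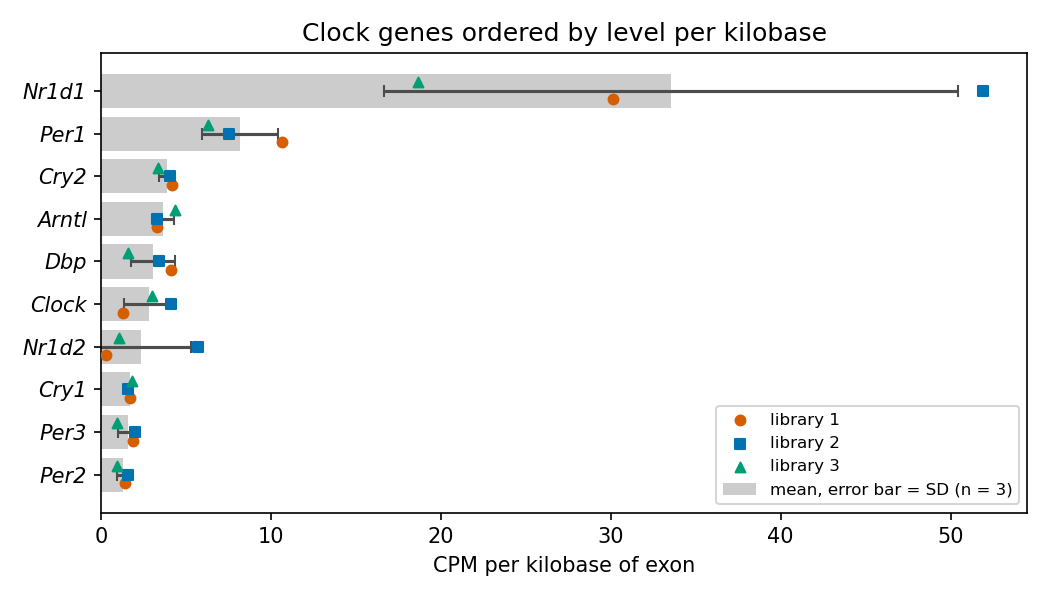
Level of each clock gene in CPM per kilobase of exon, with grey bars for the mean of 3 libraries, error bars for the SD and points for the single libraries; the lower end of the error bar of Nr1d2 is hidden at 0. Nr1d1 and Per1 stand above the other 8 genes, whose ranges overlap from each gene to the next.

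Nr1d2 was the clock gene that varied beyond the spread expected between libraries. Nr1d2 stood at 1.57, 30.9 and 5.55 CPM in libraries 1, 2 and 3. Library 2 was thus 19.8-fold above library 1 and 5.57-fold above library 3, and the range of 3.64 on log2(CPM + 1) exceeded that of 99.9% of tested genes. The edgeR goodness-of-fit test across all genes gave an adjusted p of 0.00202 with Benjamini-Hochberg adjustment. It called 1 of the 10 clock genes, against 0.437% of all tested genes; at an unadjusted p under 0.05 it also found 1 of 10, against 7.04%. The call rested on library 2: without library 2 the adjusted p of Nr1d2 in edgeR was 0.9996 and the remaining range 1.35, without library 3 it was 0.0521, and without library 1 it was 0.00573. The depth was lowest here, since the value in library 1 came from 31 counts, with an exact Poisson interval of 1.06 to 2.22 CPM that covers counting error only. The gene (ENSMUSG00000021775.10, GRCm38 chromosome 14, 18204054 to 18239127) shares no exon bases with another annotated gene.

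Its paralogue Nr1d1 was also highest in library 2, but without passing the test. Nr1d1 was at 92.8, 160 and 57.3 CPM in libraries 1, 2 and 3, so that library 2 lay above library 1, and library 3 was lowest. The highest level was 2.79 times the lowest, and the adjusted p in edgeR was 0.766, or 0.0836 without library 1 and 0.173 after detrending. Per kilobase and without detrending, Nr1d1 exceeded Nr1d2 by 104-fold in library 1, 9.07-fold in library 2 and 18.2-fold in library 3. After detrending Nr1d1 stood at 6.28, 7.52 and 5.94 and Nr1d2 at 1.92, 4.62 and 2.52 on the log2 scale. The 2 REV-ERB genes therefore shared their high library and differed in their low one. Nr1d1 (ENSMUSG00000020889.11, chromosome 11, 98767932 to 98775333) overlaps exons of Thra, the thyroid hormone receptor alpha gene on the opposite strand, over 263 bases, 8.55% of its exon bases. The strand setting of the counting is not given in the sources used here, and reads from that stretch cannot be assigned with certainty.

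**Figure D2:**
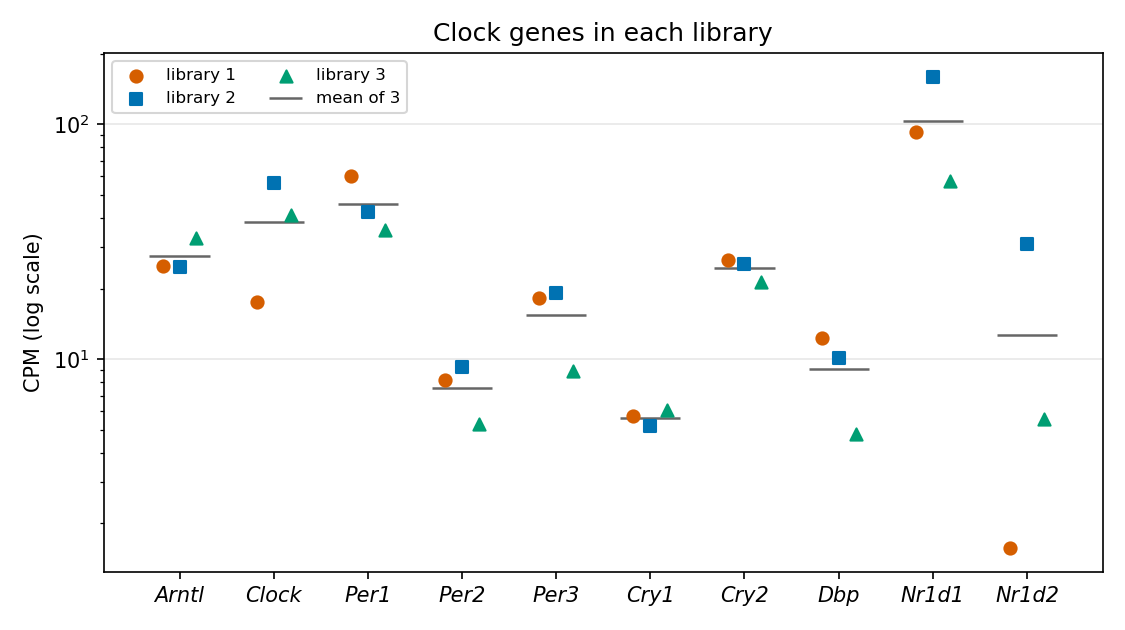
CPM of the 10 clock genes on a log axis, with 1 symbol for each library and a line at the mean of 3. Nr1d2 spreads from 1.57 to 30.9 CPM. Dbp, Per1, Per2, Per3, Cry2 and Nr1d1 are lowest in library 3, and Cry1, Cry2 and Arntl vary little.

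Dbp, the output gene, was lowest in library 3, as were Nr1d1, Cry2 and the Period genes. Dbp was at 12.3, 10.2 and 4.78 CPM in libraries 1, 2 and 3, with library 1 highest. The 2.57-fold spread did not pass the edgeR test (adjusted p = 0.9997). Which of libraries 1 and 2 was higher turned on detrending, where library 2 lay 0.24 above library 1 in place of 0.25 below it; library 3 was lowest on both scales. Exons of Dbp (ENSMUSG00000059824.10, chromosome 7, 45705088 to 45710203) overlap those of Sphk2, the sphingosine kinase 2 gene on the opposite strand, over 539 bases, or 18.01% of its exon bases.

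Of the Period genes, which encode the repressor proteins of the loop, Per3 had the pattern of Dbp. Per3 was at 18.1, 19.1 and 8.87 CPM in libraries 1, 2 and 3, so libraries 1 and 2 lay within 1.05-fold of each other and library 3 lay 2.16-fold below library 2. Per2 was at 8.13, 9.24 and 5.28 CPM, again lowest in library 3, with a 1.75-fold spread. The genes lie on chromosome 11 (Per1, 69095217 to 69109960), chromosome 1 (Per2, 91415982 to 91459324) and chromosome 4 (Per3, 151003652 to 151044665) of GRCm38. Per1 was at 60.0, 42.5 and 35.6 CPM, highest in library 1. Its range of 0.74 was 0.47 after detrending, where library 2 lay 0.10 below library 1 in place of 0.49 below it. None of the Period genes passed the edgeR test (adjusted p = 0.9997 for each), and the SD of each was 27.0% to 36.8% of its mean. Per kilobase, Per1 exceeded Per2 by 7.67-, 4.78- and 6.999-fold and Per3 by 5.64-, 3.79- and 6.84-fold in libraries 1, 2 and 3.

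The Cryptochrome genes, partners of the Period proteins in repression, were the steadiest. Cry1 was at 5.71, 5.18 and 6.05 CPM in libraries 1, 2 and 3, an SD of 7.84% of the mean, and 7.13% of tested genes had a smaller range. Cry2 was at 26.4, 25.4 and 21.2 CPM, an SD of 11.2% of the mean. Both had an adjusted p of 0.9997 in the edgeR test. Cry2 exceeded Cry1 per kilobase in 3 of 3 libraries, by 2.44-, 2.60- and 1.86-fold. Cry1 lies on chromosome 10 (85131700 to 85185064) and Cry2 on chromosome 2 (92403646 to 92434043). A non-coding transcript on the opposite strand, D930015M05Rik, covers 295 exon bases of Cry2, 4.67% of the total.

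Of the activators, Arntl varied little, whereas Clock was low in library 1. Arntl was at 24.9, 24.7 and 32.9 CPM in libraries 1, 2 and 3, highest in library 3 by 1.33-fold over library 2, a difference that did not pass the edgeR test (adjusted p = 0.9997). Clock was at 17.5, 56.1 and 41.1 CPM, lowest in library 1 by 3.21-fold against library 2, with an adjusted p of 0.714 in edgeR. Clock has a transcript of 40.9% GC, the lowest of the 10 genes, and on detrending its range shrank from 1.63 to 0.39. Arntl lies on chromosome 7 (113207465 to 113314126) and Clock on chromosome 5 (76209868 to 76304792). Per kilobase and without detrending, the ratio of Arntl to Clock was 2.60, 0.801 and 1.46 in libraries 1, 2 and 3. On that scale it was not constant between libraries. After detrending Arntl stood at 4.794, 4.584 and 5.085 and Clock at 4.908, 5.296 and 5.231 on the log2 scale.

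**Figure D3:**
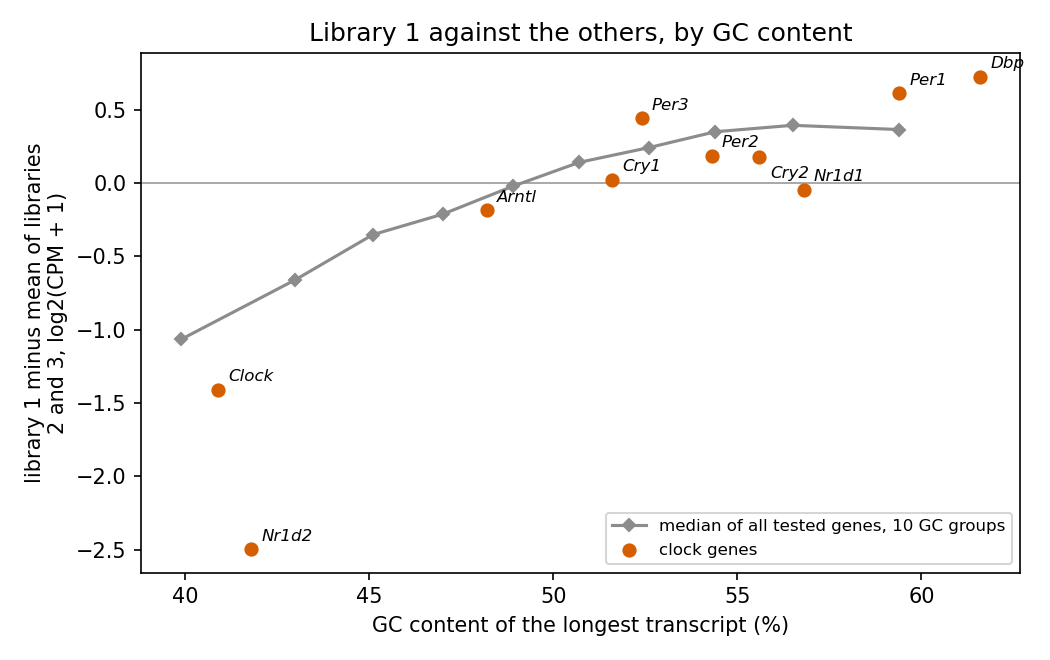
Difference of library 1 from the mean of libraries 2 and 3, on log2(CPM + 1), against the GC content of the longest transcript in percent, for the clock genes (points) and as the median of 10 equal groups of all tested genes (line). Clock and Nr1d2 lie at the low-GC end, where the line is lowest; Nr1d2, at -2.50, lies farthest below it.

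The members were set beside the trend of library 1 with base composition, which was not separated from the other ways in which that library differs. In the lowest of 10 GC groups of tested genes (median 39.9% GC) the median difference of library 1 from the mean of the others was -1.06, and in the next (43.0%) it was -0.66. On that measure Clock, at 40.9% GC, had -1.41 and Nr1d2, at 41.8% GC, had -2.50. After detrending Nr1d2 still ranged over 2.71, with an adjusted p of 0.000551 in edgeR. The 6 Period, Cryptochrome and Nr1d1 genes, between 51.6% and 59.4% GC, had differences from -0.05 to 0.61.

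Read together, 5 of the 10 genes (Clock, Per3, Dbp, Nr1d1 and Nr1d2) ranged over at least 1 on log2(CPM + 1), against 26.1% of tested genes. The median range of the members was 0.88, and that of all tested genes 0.67. Without library 1 the genes past that range were Per3, Nr1d1 and Nr1d2, against 5.01% of tested genes. With detrending they were Dbp, Nr1d1 and Nr1d2, against 15.7%. The highest library was library 1 for 3 members, library 2 for 5 and library 3 for 2. Of all tested genes, 39.6%, 32.8% and 27.6% were highest in these libraries. After detrending the members split 1, 7 and 2, and the 14409 tested genes 5491, 4327 and 4591.

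Libraries 2 and 3, the pair most alike over all genes, were compared next. Library 2 was at least 1 above library 3 in 3 members, Nr1d2 (2.29), Nr1d1 (1.46) and Per3 (1.03), a difference reached by 2.23% of tested genes. Dbp (0.95) lay just short of it and Per2 (0.70) further below. With detrending Dbp (1.12) passed it and Per3 (0.97) did not. On the main scale 0 members were at least 1 higher in library 3, as 2.44% of tested genes were. Arntl (-0.40) and Cry1 (-0.19) were the members that were higher in library 3. The signs of all 10 differences were the same with DESeq2 size factors, with plain library totals and with detrending. The median of the members was 0.57, and that of all tested genes 0.00. Among these, Nr1d2 alone passed the edgeR test on libraries 2 and 3.

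Arntl was then set against Dbp, Nr1d1 and Per3, whose transcripts peak away from it in many tissues. On log2(CPM + 1), Arntl minus the mean of those 3 genes was -0.15 in library 1, -0.36 in library 2 and 1.18 in library 3. Because the genes differ in length, only the differences between libraries can be read. Library 3 lay 1.33 above library 1 and 1.54 above library 2, and 0.95 and 1.72 above them with detrending. No test was made of this value, since the genes were picked with earlier results of these data known.

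The other genes of the clock pathway, 20 in all, were examined for the same differences. All 20 passed the filter and 0 passed the edgeR test after adjustment, against 0.437% of all tested genes. At an unadjusted p under 0.05 there were 2, against 7.04%, and the median range was 0.77. After detrending 1 of the 20, Btrc, was called, against 0.729% of tested genes. Of the 6 related lists, that of the D-box factors had the largest median range. Tef, which encodes another activator at D-boxes, was at 110, 127 and 58.6 CPM in libraries 1, 2 and 3, and Hlf, a further one, at 40.6, 51.5 and 17.6 CPM. Both were thus lowest in library 3, like Dbp and Per3, by 1.102 and 1.497 on log2(CPM + 1) against library 2, and they were the 2 related genes at least 1 higher in library 2 than in library 3. Nfil3, which encodes a repressor that competes at D-boxes, was at 106, 32.3 and 28.6 CPM and was high in library 1 alone (adjusted p = 0.260 in edgeR, and 0.232 after detrending).

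**Figure D4:**
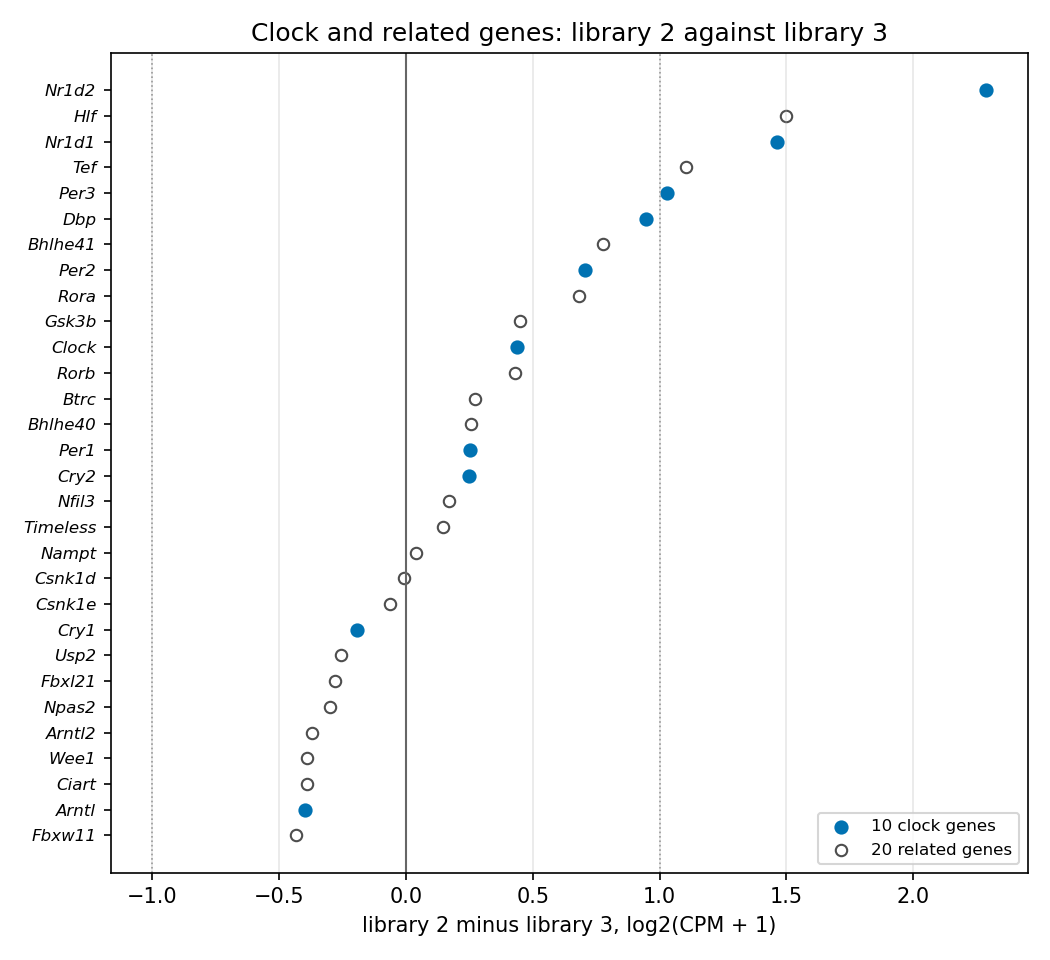
Library 2 minus library 3 on log2(CPM + 1) for the 10 clock genes (filled) and 20 related genes (open), ordered by the difference; dotted lines mark 1 in either direction. Nr1d2, Hlf, Nr1d1, Tef and Per3 lie past 1, and Arntl lies at -0.40, next to the lowest gene, Fbxw11, at -0.43.

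Among the related repressors, Bhlhe40 (DEC1), which competes for E-boxes, was the most abundant gene of the clock lists, at 1004, 665 and 557 CPM in libraries 1, 2 and 3. Per kilobase it was at 158 CPM, above the 33.6 of Nr1d1. Ciart, which encodes a repressor of the Arntl and Clock pair, was at 14.9, 5.38 and 7.37 CPM, highest in library 1, with a range of 1.31 that was 0.97 after detrending. Of the ROR receptors, the activators that oppose REV-ERB, Rora was the most abundant at 49.2, 84.1 and 52.0 CPM. Library 2 was its highest, but after detrending library 1 was, at 6.35, 5.88 and 5.56 on the log2 scale in libraries 1, 2 and 3. Rorb was at 1.36, 4.13 and 2.81 CPM, with a range of 1.12 that was 0.12 after detrending. The activators Npas2, a relative of Clock, and Arntl2 were low, at 5.55 ± 2.39 and 1.91 ± 0.49 CPM (SD, n = 3).

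The enzymes that set the stability of Period and Cryptochrome proteins were led by kinases and ubiquitin ligases. Csnk1d, which encodes casein kinase 1 delta, was the most abundant at 192, 131 and 131 CPM in libraries 1, 2 and 3, followed by the ubiquitin ligase gene Btrc at 142, 106 and 87.9 CPM. Of the 6 enzyme genes, 0 ranged over at least 1 before detrending and 1 after it. That gene, Btrc, with 40.6% GC, stood at 7.92, 6.15 and 6.31 on the detrended log2 scale, highest in library 1, with a range of 1.77 in place of 0.69 and an adjusted p of 0.0263 in edgeR. Among the outputs, Nampt, which encodes an enzyme of NAD synthesis, was at 24.8, 77.9 and 75.9 CPM, low in library 1, with a GC content of 40.3%; its range of 1.61 was 0.65 after detrending. Usp2 was at 52.5, 44.3 and 53.1 CPM.

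The likeness of profiles was measured by the Euclidean distance between centred log2(CPM + 1) values over the 3 libraries, among the 29 other clock and related genes. Arntl lay nearest to Fbxw11 (0.04), Clock to Nampt (0.32), Per1 to Btrc (0.05), Per2 to Per3 (0.31) and Per3 to Tef (0.09). These distances were taken without detrending, after which Per1 ranged over 0.47 and Btrc over 1.77. Cry1 lay nearest to Usp2 (0.09) and Cry2 to Timeless (0.08). Dbp lay nearest to Per3 (0.24) and Nr1d1 to Hlf (0.38). Nr1d2 had no near neighbour: the closest gene, Clock, was at 1.58. The values were centred but not scaled, so this distance also reflects the size of the range of Nr1d2, the widest of the members. With 3 points per gene that share library, depth and base composition, these distances only describe the profiles.

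Signals that reach Per1 from outside the clock were listed beside it. The summed level of 8 immediate early genes was 7128, 4571 and 4255 CPM in libraries 1, 2 and 3; all 8 were highest in library 1, as was Per1, against 39.6% of tested genes. After detrending 5 of 8 and Per1 were, against 38.1%, while Egr1, Dusp1 and Ier2 were highest in library 2. On the main scale 0 of 8 passed the edgeR test, against 0.437% of tested genes. At an unadjusted p under 0.05 there were also 0 of 8, against 7.04%. The most abundant were Fos at 3597, 2312 and 2351 CPM and Nr4a1 at 1990, 1137 and 899.5 CPM. Of 6 glucocorticoid-related genes, Per1 among them, 0 passed the edgeR test and 0 had an unadjusted p under 0.05. The shares of tested genes are again 0.437% and 7.04%, and in lists this short a count of 0 lies near them. Tsc22d3 (1341, 1124 and 992.5 CPM) and Sgk1 (681, 497 and 426.5 CPM) had the order of Per1, whereas Fkbp5 (16.9, 13.6 and 40.2 CPM) and Zbtb16 (11.5, 18.7 and 38.3 CPM) were highest in library 3. The part of these signals in the level of Per1 was not tested.

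Markers of other cells also differed between libraries. The summed level of 7 macrophage markers was 12.0, 263 and 738 CPM in libraries 1, 2 and 3. In the edgeR test 7 of 7 passed, against 0.437% of tested genes. The sum of 5 choroid plexus markers was 93.4, 3201 and 4887 CPM, with 3 of 5 called. That of 4 lymphocyte markers was 2.68, 47.5 and 52.5 CPM, with both of those that passed the filter called. Cd3e, the T cell marker, was at 0 in library 2. All of these sums were lowest in library 1 and highest in library 3. The sum of 6 fibroblast markers was 23470, 29100 and 25290 CPM. Of the 6, 5 were highest in library 2, against 32.8% of tested genes. After detrending Col1a1, Col1a2 and Col3a1 were highest in library 2, and Dcn, Lum and, by a small margin, Pdgfra in library 1. The sums of 5 mural cell markers (3177, 2738 and 4863 CPM) and 4 Schwann cell markers (1938, 1831 and 3002 CPM) were highest in library 3, and those of 4 erythroid markers were 800, 197 and 328 CPM. Astrocyte and endothelial markers summed to 37.7 to 60.3 and 56.3 to 76.4 CPM. The part of these cells in the clock gene levels was not tested, and in a bulk sample fewer cells of a type and less RNA per cell cannot be told apart.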

How the data were processed

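RNA of sorted leptomeningeal cells was amplified from 2 ng per sample with a low-input template-switching kit (12 cycles of cDNA amplification and 8 of library PCR), per the labels' protocols. The values are raw read counts per gene, as deposited by the authors; the submitters' processing notes name the mm10 build, HTSeq 0.5.3 and DESeq2 1.22.1, and the aligner and strand setting are not given in the sources used here. The 5 counter rows, 45.6%, 39.1% and 39.6% of all reads, were left out. GENCODE M21 (GRCm38), which held 46488 of the identifiers (98.9%), gave coordinates, exon length and the GC content of the longest transcript.

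In R 4.3.3 with edgeR 4.0.16, genes were filtered at a minimum count of 10 and scaled by TMM. With 1 group there is no contrast, so variation was tested by edgeR's goodness of fit at the trended dispersion (2 degrees of freedom, Benjamini-Hochberg adjustment over 14409 genes, threshold 0.05), after a check on simulated data. Detrending used limma 3.58.1 loess fits (span 0.3). DESeq2 1.42.0 gave alternative size factors. A count of 0 allows up to 3 counts, or 0.101 to 0.152 CPM; PCR copies are not independent molecules. The members and lists were chosen with earlier results of these data known. The genes named are all members, related genes that were called or ranged over at least 1, and the most abundant of each list. Some related genes are not reported here.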

Additional observations from a re-analysis of the deposited data

Results flagged for a closer look

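Reads that the deposited table set aside as shared between overlapping genes were a signal outside the values compared above, at a mean of 1.35% of all reads over the 3 libraries. Exons of Nr1d1, Dbp, Cry2 and Arntl overlap genes on the opposite strand, which gives shared reads where counting ignores strand; the strand setting is not given in the sources used here, and how many of these reads came from those genes was not analysed.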

How the results depend on the processing

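No paired analysis was possible because all libraries belong to 1 group. The count of all genes called variable (63) was 138 with no filter on low counts, which tested 25083 genes, and 105 with detrending for GC content and exon length, and it ranged from 12 to 28 with each replicate left out, which leaves fewer samples. The count of clock genes called variable (1, Nr1d2) ranged from 0 to 1 with each replicate left out and was 1 under the 5 other settings run. The count of all genes that ranged over at least 1 on log2(CPM + 1) (3759) was 2260 with detrending and from 774 to 2714 with each replicate left out. That of the clock genes (5) was 3 with detrending and from 2 to 3 with each replicate left out. Arntl minus the mean of Dbp, Nr1d1 and Per3, averaged over libraries (0.22), was -0.56 per kilobase of exon, which raises short genes, and ranged from -0.26 to 0.51 with each replicate left out; in library 1 (-0.15) it was 0.16 with detrending. The mean level of Nr1d2 (12.7 CPM) was 3.50 CPM without library 2 and 18.8 CPM without library 1. Of 50 ranks by level per kilobase, 27 moved. Depth limited Nr1d2 in library 1, with 31 counts.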
